A study of Mus musculus with 9 samples.

Results

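NF-κB subunits and the feedback inhibitors of NF-κB were examined as a set of 10 genes in mouse pre-osteoblasts that overexpressed HIF-1α or HIF-2α. The set comprised the subunit genes Nfkb1, Nfkb2, Rela and Relb, the IκB genes Nfkbia, Nfkbie and Nfkbiz, and Tnfaip3, Birc3 and Icam1. These are the 10 rows with those symbols among the 40213 gene symbols in each file, and all 10 passed the filter on low counts that left 14413 genes for testing. Primary calvarial pre-osteoblasts of wild-type pups, 3 days old, were kept in osteogenic medium that held L-AA at 50 μg/ml together with β-Gp at 5 mM. On day 3 they received a control adenovirus (Ad-C), an adenovirus for Hif1a (Ad-Hif1a) or one for Hif2a, whose gene symbol is Epas1 (Ad-Hif2a), and total RNA was taken on day 6, with 3 libraries per group. All groups thus carried an adenovirus, and no uninfected cells were among the samples. The study's methods describe replicates as independent experiments or mice, and the labels do not say which culture or pups each library came from, so the p-values measure the spread between these libraries.

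NF-κB factors are dimers of Rel-family proteins that are held in the cytoplasm by IκB proteins. In the canonical pathway an upstream signal leads the IκB kinase complex to mark IκBα for degradation, and dimers with p50 and RelA move to the nucleus. In the noncanonical pathway the p100 precursor encoded by Nfkb2 is processed to p52, which pairs with RelB. Many of the genes that NF-κB induces act back on the pathway, among them those of IκBα and A20, and in osteoblasts the pathway is known as a mediator of inflammatory signals that restrain bone formation.

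Library totals ranged from 14372589 to 18623403 counts, and the 10 genes had 128 to 4780 counts in each library. Levels are given as CPM scaled by TMM, that is, relative to a library's total over the genes tested times its TMM factor. This scale is without gene length, so levels are compared between libraries and not between genes. Differences are log2 fold changes ± SE from the fit, and adjusted p-values are those of edgeR over all genes tested. Of the transcripts the vectors are named for, Hif1a had a mean level of 190 ± 3.45 CPM in the Ad-C libraries (SD, n = 3), 1830 ± 549 in the Ad-Hif1a libraries and 536 ± 76.5 in the Ad-Hif2a libraries. Epas1 was at 45.9 ± 3.59, 524 ± 140 and 1670 ± 736 CPM in the same order. Each vector library thus lay above all Ad-C libraries for both transcripts, and the counts do not separate transcripts of the vector from those of the cells. Ad-Hif1a replicate 1 and Ad-Hif2a replicate 3 stood apart from the other vector libraries, at 11.4 and 56.5 on the second principal component against -35.7 to -15.4. In these libraries 2.95% and 2.82% of the counts were mitochondrial, against 3.69 to 5.77% in the other vector libraries and 5.92 to 6.37% with Ad-C.

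The κB motif is the stretch of DNA that NF-κB dimers bind, and promoter sequence was set beside the counts of the genes known as NF-κB targets. RefSeq promoters on GRCm38.p6, the 250 bases before the start of a transcript, were at hand for 7 of the 10 genes (10 promoters in all) and not for Nfkb1, Relb and Nfkbiz. The NF-κB consensus (kB) matched, on either strand, in 6 of these 10 promoters, against 7.25% of 32851 mouse promoters of the same length, in genes that were chosen as parts and targets of the pathway. The promoters with a match belonged to Nfkb2, Nfkbia, Nfkbie and Tnfaip3. The following windows of 30 bases show the matches of these genes in capitals, read 5′ to 3′ on the strand of the gene, with base 1 before the start counted as the nearest. Of the Nfkb2 matches those of its first listed promoter are shown, where bases 39 to 29 hold overlapping matches.
Nfkbia, bases 29 to 20 before the start, chr12:55492657-55492686, minus strand: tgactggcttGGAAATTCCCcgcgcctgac
Nfkbie, bases 106 to 97, chr17:45555584-45555613, plus strand: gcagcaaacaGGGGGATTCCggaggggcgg
Nfkb2, bases 39 to 29, chr19:46304689-46304718, plus strand: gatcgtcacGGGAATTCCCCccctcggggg
Nfkb2, bases 11 to 2, chr19:46304707-46304736, plus strand: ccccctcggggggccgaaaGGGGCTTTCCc
Tnfaip3, bases 125 to 116, chr10:19015516-19015545, minus strand: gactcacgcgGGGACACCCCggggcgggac
Tnfaip3, bases 12 to 3, chr10:19015411-19015440, minus strand: gtgactggaatttccatcGGAAATCCCCct

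The core of the hypoxia response element, ACGTG or GCGTG on either strand, was in 6 of the 10 promoters and in 38.6% of the 32851. It was found in promoters of Icam1, Nfkbie, Nfkb2 and Tnfaip3. The whole windows of Nfkbia and Icam1 were picked by outcome, since the former gene rose with both vectors and the latter did not pass the test. The kB match of Nfkbia and the hypoxia response core of Icam1 are in capitals. Nfkbie and Tnfaip3 hold kB matches as well and did not pass the edgeR test. The Icam1 window holds a stretch that departs from the kB consensus at its first base only, so it is not shown to lack a site. No kB match overlapped a hypoxia response core. A match of letters is a description of the sequence and not a bound site.
Nfkbia, chr12:55492648-55492897, minus strand: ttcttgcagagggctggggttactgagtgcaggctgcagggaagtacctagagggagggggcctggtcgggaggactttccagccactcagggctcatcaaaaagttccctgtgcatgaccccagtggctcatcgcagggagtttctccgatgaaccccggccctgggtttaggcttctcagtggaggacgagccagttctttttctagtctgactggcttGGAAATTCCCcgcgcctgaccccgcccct
Icam1, chr9:21015690-21015939, plus strand: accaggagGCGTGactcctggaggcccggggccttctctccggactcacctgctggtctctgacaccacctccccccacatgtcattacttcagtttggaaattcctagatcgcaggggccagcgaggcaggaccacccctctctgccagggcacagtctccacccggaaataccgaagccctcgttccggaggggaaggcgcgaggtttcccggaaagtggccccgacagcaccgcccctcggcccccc

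Comparing each vector with Ad-C asked which of the 10 genes respond to overexpression of either HIF. Nfkb2, Relb, Nfkbia and Nfkbiz rose with Ad-Hif1a and also with Ad-Hif2a, at an adjusted p under 0.05 in the quasi-likelihood test of edgeR. These were 4 of 10 genes in each comparison, where 6.04% of all genes tested rose with Ad-Hif1a (11.3% changed in either direction) and 7.87% rose with Ad-Hif2a (15.6% changed). None of the 10 fell in either comparison by edgeR or DESeq2, or at an unadjusted p under 0.05 (0 in each), while 5.22% and 7.72% of all genes tested fell. The median log2 fold change of the 10 genes was 0.65 with Ad-Hif1a and 0.69 with Ad-Hif2a, beside 0.01 over all genes tested in both comparisons. At an unadjusted p under 0.05, 5 and 7 of the 10 genes passed. All 3 vector libraries lay above all 3 Ad-C libraries for 6 genes with Ad-Hif1a and for 7 with Ad-Hif2a, which was so for 24.5% and 24% of all genes tested (25.9% and 25.5% lay below). The Ad-C libraries were shared by both comparisons.

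**Figure D1:**
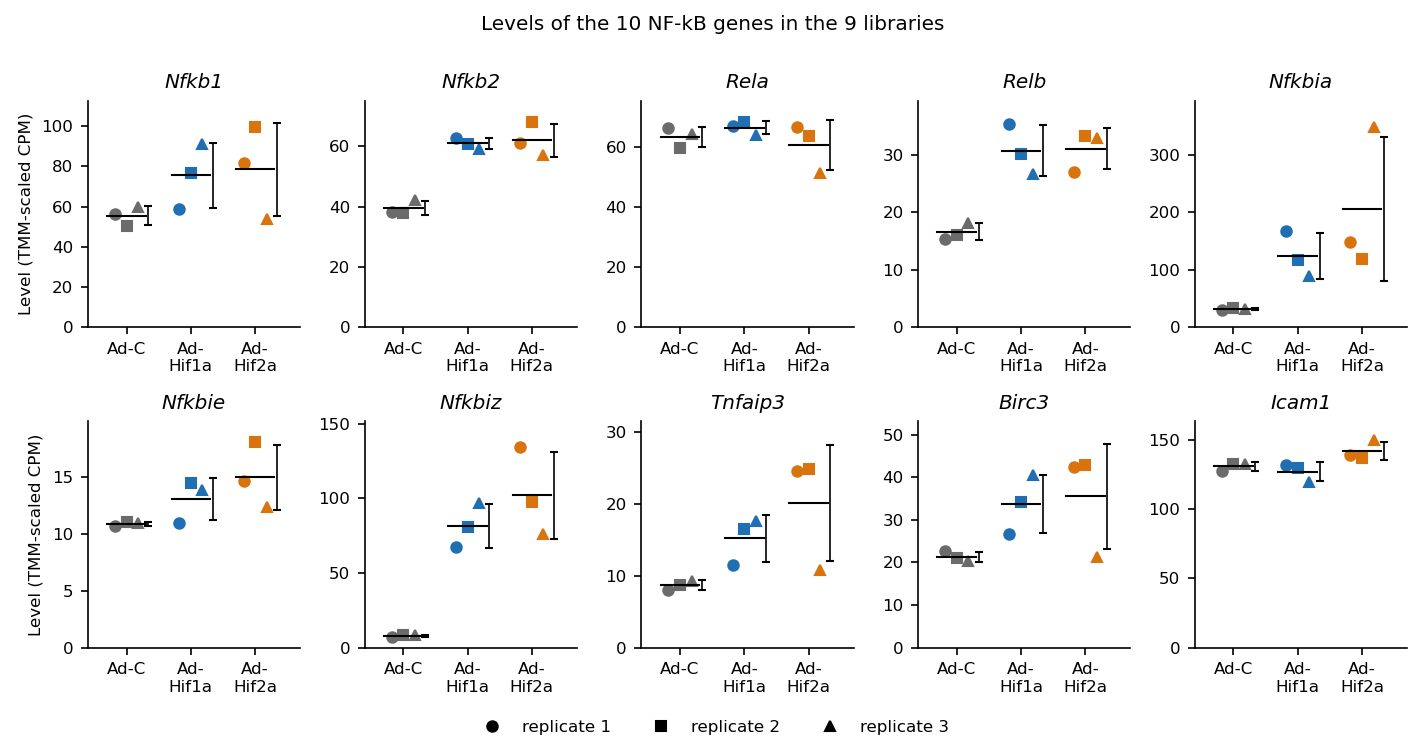
Levels of the 10 genes in TMM-scaled CPM (linear axis from 0), 1 panel per gene and 1 point per library, with the mean of each group as a line and the SD over 3 libraries as a bar. Nfkb2, Relb, Nfkbia and Nfkbiz lie above Ad-C in all 6 vector libraries, and Rela and Icam1 stay near the Ad-C level.

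Among the subunits, the noncanonical pair of Nfkb2 and Relb rose and the canonical Rela did not pass the test. Nfkb2, the gene of p100 and p52, was at 38.3, 38.0 and 42.1 CPM with Ad-C, at 62.9, 60.7 and 59.2 CPM with Ad-Hif1a and at 61.2, 68.0 and 57.2 CPM with Ad-Hif2a. Every vector library exceeded every Ad-C library, and the libraries of the vector groups overlapped. Its log2 fold change was 0.63 ± 0.14 (adjusted p = 0.0331) with Ad-Hif1a and 0.65 ± 0.14 (adjusted p = 0.023) with Ad-Hif2a. Relb, the gene of the partner of p52, was at 15.4, 16.1 and 18.2 CPM with Ad-C, at 35.4, 30.1 and 26.7 CPM with Ad-Hif1a and at 26.9, 33.3 and 32.9 CPM with Ad-Hif2a. The Relb levels of the control and vector groups were likewise separate. The log2 fold change of Relb was 0.89 ± 0.19 (adjusted p = 0.0234) and 0.90 ± 0.19 (adjusted p = 0.018).

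Rela, which encodes the main transactivating subunit of the canonical pathway, was at 66.3, 59.9 and 64.3 CPM with Ad-C, 67.0, 68.6 and 64.1 CPM with Ad-Hif1a and 66.9, 63.8 and 51.3 CPM with Ad-Hif2a. Its groups overlapped, and Ad-Hif2a replicate 3 was the lowest of the 9 libraries. The 95% interval of its log2 fold change ran from -0.27 to 0.41 with Ad-Hif1a and from -0.41 to 0.27 with Ad-Hif2a. Nfkb1, the gene of p105 and p50, was at 56.5, 50.4 and 59.6 CPM with Ad-C, 58.9, 76.7 and 91.0 CPM with Ad-Hif1a and 81.9, 99.6 and 53.9 CPM with Ad-Hif2a. The Ad-Hif1a replicate 1 and Ad-Hif2a replicate 3 libraries lay within the Ad-C range for Nfkb1 and the other 4 vector libraries lay above it. Its log2 fold change did not pass the test, at 0.44 ± 0.26 (adjusted p = 0.336) and 0.49 ± 0.26 (adjusted p = 0.227).

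Ratios of counts within a library do not depend on scaling between libraries. The ratio of Nfkb2 to Rela counts was 0.578 to 0.654 in the Ad-C libraries, 0.885 to 0.94 in the Ad-Hif1a libraries and 0.914 to 1.12 in the Ad-Hif2a libraries. The ratio of Relb to Rela counts was 0.232 to 0.283, 0.417 to 0.529 and 0.402 to 0.642 in the same order. Neither ratio overlapped between control and vector libraries. As Rela stayed near its Ad-C level, both ratios repeat the rise of Nfkb2 and Relb and are no separate test. The ratio of Nfkb1 to Rela counts was 0.842 to 0.926, 0.879 to 1.42 and 1.05 to 1.56, and overlapped between Ad-C and Ad-Hif1a. The ratios are not corrected for gene length, so only their difference between libraries can be read.

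Of the IκB genes, Nfkbiz and Nfkbia had the largest differences of the 10 genes. Nfkbiz encodes IκBζ, a nuclear IκB protein that acts as a coactivator at a subset of NF-κB targets, and was at 7.07, 8.13 and 8.18 CPM with Ad-C. It was at 67.2, 80.7 and 96.5 CPM with Ad-Hif1a and at 134, 97.3 and 76.1 CPM with Ad-Hif2a. The lowest vector library was thus far above the highest Ad-C library. Its log2 fold change was 3.39 ± 0.27 (adjusted p = 0.000631) with Ad-Hif1a and 3.71 ± 0.28 (adjusted p = 0.000388) with Ad-Hif2a, and Nfkbiz was the only one of the 10 genes to pass in all 18 alternative settings of both comparisons.

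Nfkbia encodes IκBα, which binds RelA dimers and is resynthesized when NF-κB is active. It was at 30.8, 33.2 and 31.2 CPM with Ad-C, 168, 116 and 89.0 CPM with Ad-Hif1a and 148, 119 and 348 CPM with Ad-Hif2a. All vector libraries lay above Ad-C, and Ad-Hif2a replicate 3 was the highest of the 9 libraries. The log2 fold change was 1.98 ± 0.42 (adjusted p = 0.0263) with Ad-Hif1a and 2.61 ± 0.43 (adjusted p = 0.00848) with Ad-Hif2a, and the latter was 1.94 without Ad-Hif2a replicate 3. Nfkbie, the gene of IκBε, a cytoplasmic inhibitor of RelA and c-Rel dimers, was at 10.7, 11.1 and 11 CPM with Ad-C, 11, 14.5 and 13.9 CPM with Ad-Hif1a and 14.7, 18.1 and 12.4 CPM with Ad-Hif2a. Its Ad-Hif2a libraries did not overlap Ad-C, but the difference did not pass the test there (log2 fold change 0.45 ± 0.18, adjusted p = 0.132) or with Ad-Hif1a (0.25 ± 0.18, adjusted p = 0.408).

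Of Tnfaip3, Birc3 and Icam1, which encode neither subunits nor IκB proteins, none passed the edgeR test with the replicate block on all 9 libraries. Tnfaip3 encodes A20, the ubiquitin-editing enzyme that shuts off signaling upstream of the IκB kinases, and was at 8.01, 8.75 and 9.30 CPM with Ad-C, 11.5, 16.5 and 17.6 CPM with Ad-Hif1a and 24.5, 24.9 and 10.8 CPM with Ad-Hif2a. All vector libraries lay above all Ad-C libraries, with the smallest distance in Ad-Hif2a replicate 3. The log2 fold change was 0.80 ± 0.33 (adjusted p = 0.181) and 1.18 ± 0.34 (adjusted p = 0.0569). With Ad-Hif2a, Tnfaip3 passed on the same 9 libraries without the block (adjusted p = 0.0189), by DESeq2 (adjusted p = 0.0063) and with no filter on low counts (adjusted p = 0.048). Birc3, which encodes cIAP2, a ubiquitin ligase of TNF receptor complexes, was at 22.6, 21.0 and 20.2 CPM with Ad-C, 26.7, 34.1 and 40.4 CPM with Ad-Hif1a and 42.5, 42.8 and 21.3 CPM with Ad-Hif2a. Only Ad-Hif2a replicate 3 of the vector libraries lay within the Ad-C range. Its log2 fold change was 0.68 ± 0.29 (adjusted p = 0.195) and 0.72 ± 0.29 (adjusted p = 0.135), and how reads shared with the close paralog Birc2 were counted is not given in the sources used here.

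Icam1, an adhesion molecule of the cell surface and a standard NF-κB target, was at 128, 133 and 133 CPM with Ad-C, 132, 130 and 120 CPM with Ad-Hif1a and 139, 137 and 150 CPM with Ad-Hif2a. Its spread was narrow, with Ad-Hif2a libraries a little above all others and Ad-Hif1a libraries overlapping Ad-C. The 95% interval of its log2 fold change was -0.35 to 0.27 for Ad-Hif1a against Ad-C and -0.20 to 0.43 for Ad-Hif2a. Fold changes of Icam1 and Rela passed in none of the 18 alternative settings of either comparison.

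**Figure D2:**
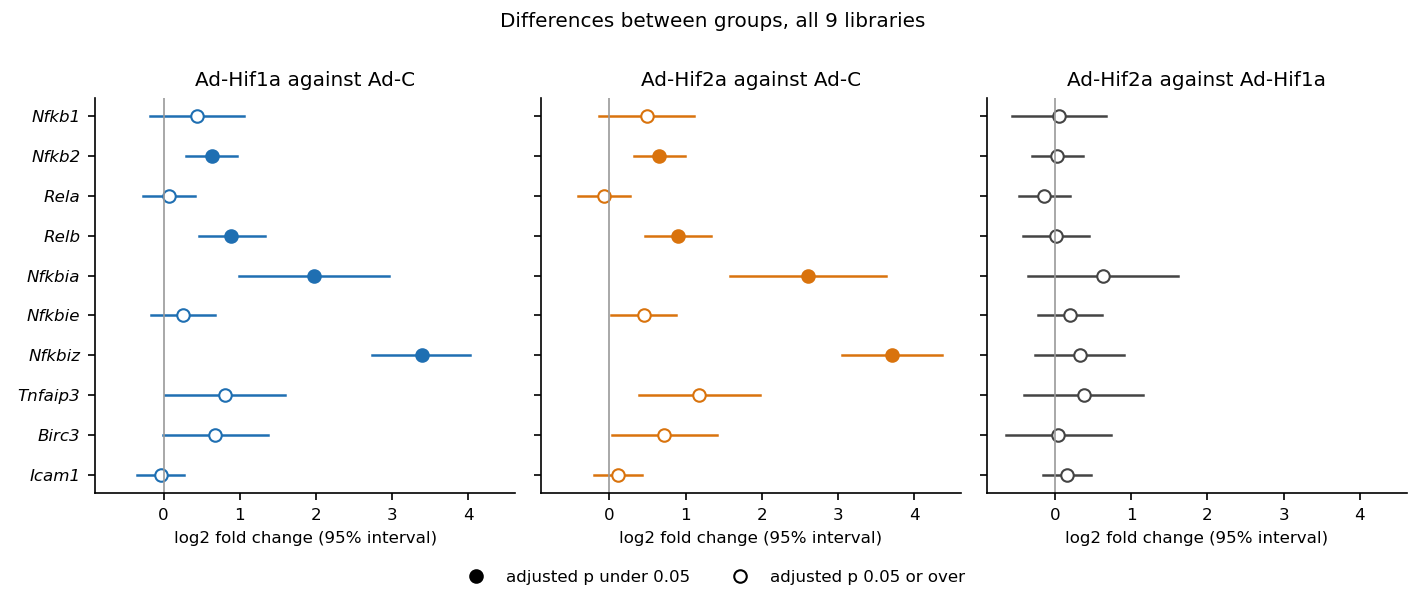
Log2 fold changes of the 10 genes in the 3 comparisons (points) with 95% intervals (lines), filled where the adjusted p was under 0.05. The filled points are Nfkb2, Relb, Nfkbia and Nfkbiz against Ad-C, and no point is filled between the vectors.

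Comparing the vectors with each other asked whether HIF-2α and HIF-1α differ in their effect on these genes. No gene passed the edgeR test among the 14413 (0% of all genes, 0% in either direction), with 338 at an unadjusted p under 0.05, and DESeq2 called 19. None of the 10 genes was in either of those sets, and each had an adjusted p of 1. Their log2 fold changes of Ad-Hif2a over Ad-Hif1a ran from -0.14 for Rela to 0.63 for Nfkbia. The 95% interval was -0.35 to 1.61 for Nfkbia, -0.26 to 0.91 for Nfkbiz, -0.41 to 1.16 for Tnfaip3 and -0.42 to 0.44 for Relb. These intervals leave room for sizable differences in the first 3 of these genes. The vectors' own transcripts did not pass this edgeR test either, at -1.75 for Hif1a (adjusted p = 0.823) and 1.64 for Epas1. DESeq2 called both (adjusted p = 3.02e-07 and 0.0184). The absence of calls by edgeR thus does not show that the vectors act alike. Icam1 was the only one of the 10 whose Ad-Hif2a libraries all lay above the Ad-Hif1a libraries, which was so for 3.07% of all genes tested (3.21% lay below), and its interval was -0.16 to 0.47.

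The order of the libraries within a vector group ran opposite for Nfkbia and for Nfkb1, Tnfaip3 and Birc3. In the Ad-Hif1a group, replicate 1 had the highest Nfkbia level and the lowest levels of Nfkb1, Tnfaip3 and Birc3, and replicate 3 the reverse. In the Ad-Hif2a group, replicate 3 had the highest Nfkbia level and the lowest levels of the other 3 genes, and replicate 2 the reverse. On the log2 scale relative to the Ad-C mean, Nfkbia was at 3.45 in Ad-Hif2a replicate 3, where Tnfaip3 was at 0.31, Birc3 at 0.00 and Nfkb1 at -0.04. In Ad-Hif2a replicate 2 the same genes were at 1.91, 1.51, 1.01 and 0.85. The ratio of Nfkbia to Tnfaip3 counts was 3.36 to 3.84 with Ad-C, 14.6, 7.05 and 5.04 with Ad-Hif1a and 6.04, 4.79 and 32.3 with Ad-Hif2a. Genes outside the pathway also followed these libraries. The macrophage marker C1qa was highest of its vector group in Ad-Hif1a replicate 1 (59.4 CPM) and Ad-Hif2a replicate 3 (96.6 CPM). The osteoblast marker Runx2 was lowest of its vector group in the same libraries (42.9 and 29.9 CPM). Csf1r, another macrophage marker, followed neither pattern. The share of all genes tested with either pattern was not counted.

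After each group's mean was taken off, the log2 levels of Nfkbia had a Pearson r of -0.964 with Tnfaip3, -0.98 with Birc3 and -0.975 with Nfkb1 over the 9 libraries, as a description of points that share libraries and depth. Tnfaip3 and Birc3 had an r of 0.957 with each other, and Nfkbia and Icam1 one of 0.863. As genes outside the pathway followed the same libraries, these correlations are not shown to be particular to NF-κB genes. The libraries with the highest Nfkbia level in each vector group were those with the lowest share of mitochondrial counts and with the lowest level of the vector's own transcript, at 1240 CPM for Hif1a in Ad-Hif1a replicate 1 and 823 CPM for Epas1 in Ad-Hif2a replicate 3. The part of the mitochondrial share and of the vector's transcript in these differences was not tested.

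**Figure D3:**
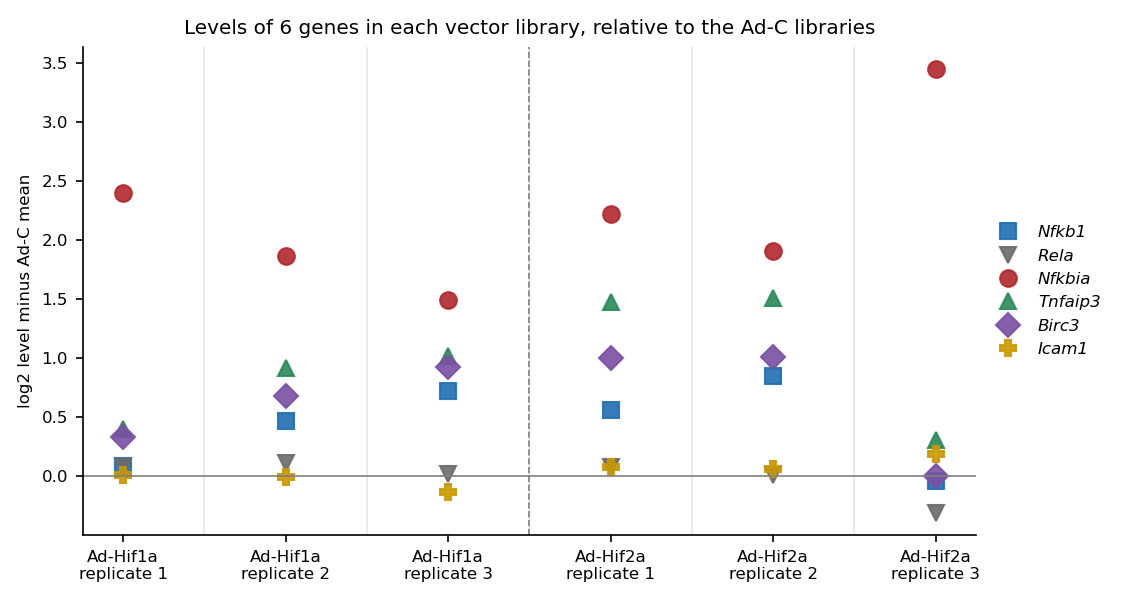
Log2 level relative to the Ad-C mean (y axis) of 6 of the 10 genes in each of the 6 vector libraries (x axis), 1 symbol per gene. Nfkbia is highest in Ad-Hif2a replicate 3 (3.45), where Tnfaip3 (0.31), Birc3 (0.00) and Nfkb1 (-0.04) are lowest among the Ad-Hif2a libraries.

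The calls of several genes changed when a single library was left out. Without Ad-Hif2a replicate 3, 7 of the 10 genes rose with Ad-Hif1a and 8 with Ad-Hif2a, the 4 genes already named and those given below, and the same counts were reached without both libraries that stood apart. Calls over all genes grew as well without Ad-Hif2a replicate 3, from 1624 to 5330 genes changed with Ad-Hif1a and from 2247 to 3309 with Ad-Hif2a. The gain is thus not particular to the 10 genes. Tnfaip3 then rose by a log2 fold change of 0.79 (adjusted p = 0.00254) and 1.60 (adjusted p = 5.78e-05) in the edgeR fit without Ad-Hif2a replicate 3. Birc3 rose by 0.65 (adjusted p = 0.00705) and 1.05 (adjusted p = 0.00108), and Nfkb1 by 0.42 (adjusted p = 0.0318) and 0.80 (adjusted p = 0.00341). Nfkbie passed with Ad-Hif2a, at 0.60 (adjusted p = 0.0259). Without Ad-Hif1a replicate 3, calls grew too, to 2177 genes with Ad-Hif1a and 3111 with Ad-Hif2a. In that edgeR fit Tnfaip3 passed with Ad-Hif2a (1.13, adjusted p = 0.0377). Omitting any of the remaining libraries took calls of the 10 genes away with Ad-Hif1a, with Ad-Hif2a or with both. With any 1 Ad-C library left out, or with Ad-Hif1a replicate 1 or 2 left out, Nfkb2, Relb and Nfkbia no longer passed with Ad-Hif1a, although their log2 fold changes stayed at 0.56 to 0.71, 0.70 to 1.04 and 1.60 to 2.34 over the 9 omissions. With Ad-Hif2a, these 3 genes no longer passed without Ad-C replicate 1 or 3, nor did Nfkb2 and Relb without Ad-C replicate 2, Ad-Hif1a replicate 2 or Ad-Hif2a replicate 2. Nfkb2 also failed to pass without Ad-Hif2a replicate 1 in both comparisons, with no filter on low counts with Ad-Hif1a (adjusted p = 0.0639) and with just the 6 libraries of the comparison with Ad-Hif2a (adjusted p = 0.0674).

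**Figure D4:**
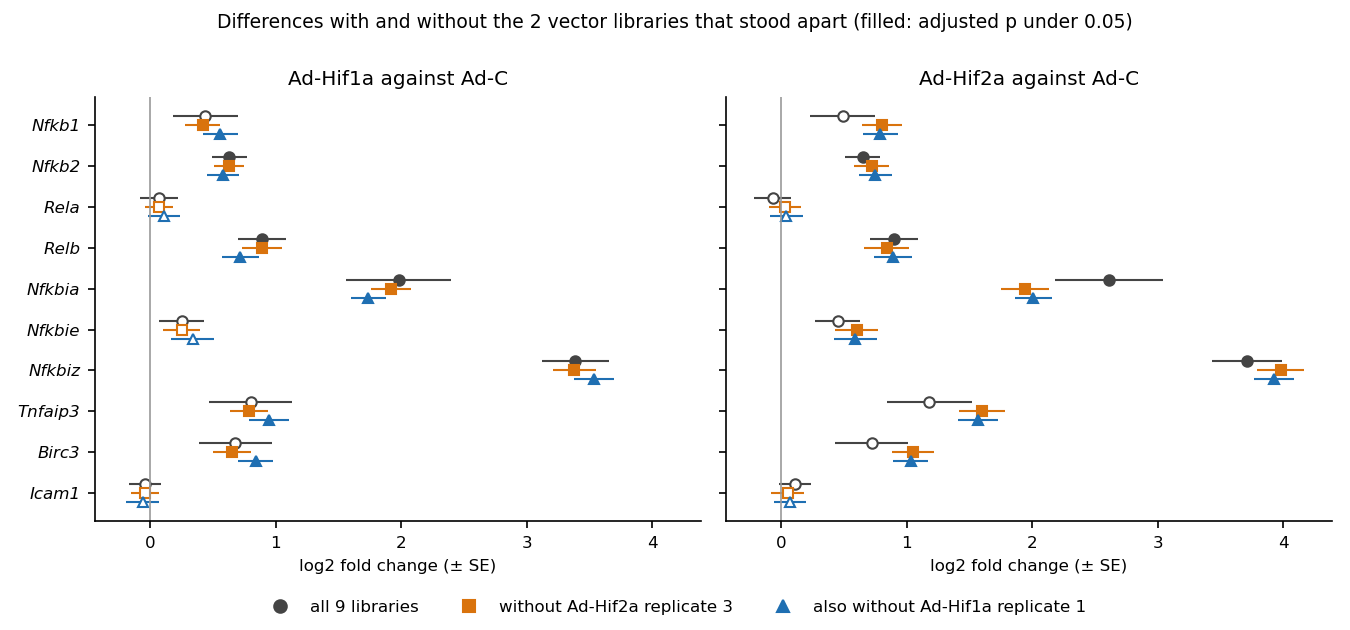
Log2 fold changes against Ad-C (points, with SE as lines) from all 9 libraries, without Ad-Hif2a replicate 3, and without Ad-Hif1a replicate 1 as well, filled where the adjusted p was under 0.05. Nfkb1, Tnfaip3 and Birc3 are open with all 9 libraries and filled in the other fits, and Rela and Icam1 are open throughout.

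Genes of the pathway beyond the 10 were counted in lists chosen by role. The remaining subunit gene, Rel, encodes c-Rel, which is known from lymphoid and myeloid cells, and had 20.4, 17.6 and 21.3 CPM with Ad-C, 11.2, 14.2 and 14.3 CPM with Ad-Hif1a and 10.1, 14.1 and 11.4 CPM with Ad-Hif2a. Rel fell with Ad-Hif2a (log2 fold change -0.75 ± 0.19, adjusted p = 0.0363) and did not pass with Ad-Hif1a (-0.59 ± 0.19, adjusted p = 0.0922). With 1 library left out, the call with Ad-Hif2a was kept in 3 of 9 omissions, those of Ad-Hif1a replicate 3 and Ad-Hif2a replicates 2 and 3, at log2 fold changes of -0.93 to -0.62 over the 9, and the adjusted p reached 0.224. Of 15 macrophage markers, 8 fell, 0 rose and 7 did not pass with each vector, while 5.22% and 7.72% of all genes tested fell. The summed level of the 15 markers ranged over 3470 to 3720 CPM in the Ad-C libraries, 1500 to 1660 CPM in the Ad-Hif1a libraries and 1550 to 1830 CPM in the Ad-Hif2a libraries, with none of the 15 at 0. Lyz2, at a mean of 2430, 1130 and 1170 CPM, made up most of each sum. Adgre1, which did not pass, was at 117, 101 and 116 CPM. In bulk RNA, fewer cells of a type and less RNA per cell cannot be told apart, and the part of such cells in the levels of Rel and of the 10 genes was not tested.

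Among the 3 IκB genes outside the set, Bcl3 rose. Bcl3, a nuclear IκB protein that binds p50 and p52 dimers, was at 6.96, 6.56 and 6.90 CPM with Ad-C, 40.6, 34.7 and 34.6 CPM with Ad-Hif1a and 41.9, 39.3 and 39.3 CPM with Ad-Hif2a. Its libraries of each group lay close together, including the pair that stood apart. The log2 fold change was 2.42 ± 0.15 (adjusted p = 0.000255) and 2.56 ± 0.15 (adjusted p = 0.000162). Nfkbib, the gene of IκBβ, and Nfkbid, that of the nuclear IκBNS, did not pass, at 0.59 and 0.49 with Ad-Hif1a and 0.98 and 0.93 with Ad-Hif2a.

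Of 12 other feedback inhibitors and adaptors, 3 rose with Ad-Hif1a and 4 with Ad-Hif2a, beside 6.04% and 7.87% of all genes tested, and 0 fell (0 by DESeq2, and 0 and 2 at an unadjusted p under 0.05). Over all genes tested, 5.22% and 7.72% fell. Zc3h12a, which encodes regnase-1, a nuclease that degrades inflammatory mRNAs, was at 3.86, 3.70 and 3.21 CPM with Ad-C, 40.3, 44.9 and 46.4 CPM with Ad-Hif1a and 62.6, 60.2 and 43.8 CPM with Ad-Hif2a. This is a clear separation in all libraries, with a log2 fold change of 3.62 ± 0.20 (adjusted p = 0.000202) and 3.94 ± 0.20 (adjusted p = 0.000125). Tnip1, an A20-binding protein gene, rose by 0.94 (adjusted p = 0.00492) and 1.10 (adjusted p = 0.00203), and Irak3, a negative regulator of Toll-like receptor signaling, by 1.41 (adjusted p = 0.00834) and 1.52 (adjusted p = 0.00503). Tnip3, another A20-binding protein gene, rose with Ad-Hif2a by 1.39 (adjusted p = 0.0234) and was at 0.66 with Ad-Hif1a (adjusted p = 0.228). Over the alternatives, 1 to 6 of these 12 genes rose in the Ad-Hif1a comparison and 3 to 5 in the other, with the highest counts without both libraries that stood apart and 1 with Ad-Hif1a without Ad-C replicate 1 or 3 or Ad-Hif1a replicate 2. With 1 library left out, Tnip3 passed with Ad-Hif2a in 3 of 9 omissions, and Tnip1 and Irak3 passed with Ad-Hif1a in 6 and 5 of 9 and with Ad-Hif2a in 9 of 9.

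Of 24 genes of the IκB kinases and the adaptors upstream of them, 1 rose with Ad-Hif1a and 2 with Ad-Hif2a, close to the 6.04% and 7.87% of all genes tested. None fell by edgeR or DESeq2 (0 each), and 1 did in each comparison at an unadjusted p under 0.05. By edgeR, 5.22% and 7.72% of all genes tested fell. Ikbke, an IκB kinase relative that acts in interferon induction, rose by 1.12 ± 0.17 (adjusted p = 0.00724) and 1.17 ± 0.17 (adjusted p = 0.00489) on the log2 scale. Irak2, a kinase downstream of Toll-like and interleukin-1 receptors, was at 0.68 (adjusted p = 0.0676) and rose by 0.79 (adjusted p = 0.0331) with Ad-Hif2a. The genes of the canonical kinase complex did not pass, with log2 fold changes of 0.13 and 0.02 for Chuk, 0.03 and 0.14 for Ikbkb and 0.41 and 0.36 for Ikbkg. Ikbkg had 95% intervals of 0.10 to 0.72 and 0.05 to 0.67 and passed in 5 and 4 of 18 alternatives. All its vector libraries lay above all Ad-C libraries, as for 24.5% and 24% of all genes tested. Traf2, an adaptor of TNF receptors, did not pass either, at 0.65 (adjusted p = 0.14) and 0.75 (adjusted p = 0.0755). By DESeq2, 3 and 4 of the 24 rose. The genes risen numbered 0 to 7 in the Ad-Hif1a comparison and 0 to 5 in the other over the alternatives, with 0 in both comparisons without Ad-C replicate 1, 0 with Ad-Hif1a also without Ad-C replicate 2 or 3 or Ad-Hif1a replicate 2, and 6 and 5 without both libraries that stood apart. With 1 library left out, Irak2 passed with Ad-Hif2a in 3 of 9 omissions, and Ikbke in 5 of 9 with Ad-Hif1a and 8 of 9 with Ad-Hif2a.

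Among 29 other NF-κB targets that act in the cell or on its surface, 11 rose and 3 fell with Ad-Hif1a, and 13 rose and 1 fell with Ad-Hif2a. Of all genes tested, 6.04% and 7.87% rose and 5.22% and 7.72% fell. Over the alternatives the genes risen numbered 4 to 16 in the Ad-Hif1a comparison and 6 to 15 in the other. Genes changed over all genes numbered 441 to 5330 and 688 to 4173 over the same alternatives, which stands beside the ranges of the other lists too. The lowest counts (4 and 6) came without Ad-C replicate 1 or 3, the first also without Ad-Hif1a replicate 2, and there were 5 and 8 without Ad-C replicate 2 and 7 with Ad-Hif2a without Ad-Hif2a replicate 1. Sod2, the mitochondrial superoxide dismutase, rose from a mean of 46.1 ± 1.32 CPM in the Ad-C libraries (SD, n = 3) to 415 ± 65.5 in the Ad-Hif1a libraries and 579 ± 118 in the Ad-Hif2a libraries (log2 fold change 3.16, adjusted p = 0.000283, and 3.64, adjusted p = 0.000161). Ptgs2, the inducible cyclooxygenase, rose by 2.76 (adjusted p = 0.00291) and 3.26 (adjusted p = 0.00127). Ier3, an early-response survival gene, rose by 1.78 (adjusted p = 0.00119) and 2.33 (adjusted p = 0.000387), and Nos2, the inducible nitric oxide synthase, by 5.69 (adjusted p = 0.00123) and 7.37 (adjusted p = 0.000409) from 0.312 CPM with Ad-C. At this level Nos2 passed the filter on low counts through the vector groups, so its direction was set by the filter. It is counted among the 11 and 13 genes risen. Cd83 and, with Ad-Hif1a, Clec4e and Plau were the genes that fell, named here after their values were seen, and Cd83 and Clec4e are known from dendritic cells and macrophages. Cd83, at a mean of 5.02 CPM with Ad-C and 0.348 and 0.657 CPM with the vectors, passed the filter through the Ad-C group. Its direction was thus set by the filter too.

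Other cell types were checked by their markers. Osteoblast markers summed to 67500 to 73100 CPM in the Ad-C libraries, 59600 to 61900 CPM in the Ad-Hif1a libraries and 52200 to 61000 CPM in the Ad-Hif2a libraries, with 4 and 6 of 12 fallen (5.22% and 7.72% of all genes tested) and none of the 12 at 0. Col1a1, Col1a2 and Sparc made up most of each sum and did not pass. Spp1 and Ibsp were higher in every vector library and did not pass either. Neutrophil markers summed to 0.552 to 1.12, 26.9 to 29.1 and 39.2 to 54.0 CPM in the same order, and Mmp8, at a mean of 0.679, 21.8 and 36.8 CPM, made up most of each sum. Just 3 of the 10 (Mmp8, Camp and S100a8) passed the filter on low counts, through their levels in the vector groups, so their direction was set by the filter. S100a9, Ngp and Retnlg were at 0 counts in every library. Lymphocyte markers summed to 2.89 to 3.70, 0.68 to 1.43 and 0.572 to 0.874 CPM, with Cd3e, Cd3g, Cd8a and Nkg7 at 0. Endothelial markers summed to 11.1 to 13.1, 17.8 to 19.1 and 15.6 to 22.2 CPM, higher in every vector library than in any Ad-C library. Erg was the largest part of the vector sums, at a mean of 5.35, 12.9 and 11.3 CPM. Kdr went the other way, at 4.24, 1.31 and 0.842 CPM. Skeletal muscle markers summed to 53.7 to 64.9, 9.63 to 11.7 and 4.72 to 8.63 CPM, lower in every vector library. Myh1, at a mean of 57.7, 2.39 and 1.47 CPM, made up most of the Ad-C sum. Acta1 went the other way, at 0.715, 6.7 and 4.01 CPM. The parts of these cell types in the NF-κB results were not tested.

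The mean profile of the 10 genes, each centered on its own mean, was set beside the 7748 other genes with an average log2 CPM over 4. The highest Pearson r over the 9 libraries was with Moxd1 (0.9958), Tnfrsf21, the gene of death receptor 6 (0.9947), Picalm, a clathrin adaptor gene (0.9943), Ch25h, the cholesterol 25-hydroxylase (0.9938), and Mmp2, a gelatinase (0.9938). After each group's mean was taken off, the genes most alike were Nedd4l (0.995), Dkk3 (0.9895), Pik3r4 (0.9886), Golga1 (0.9881) and Iars (0.987). The lists shared no gene, and the correlations describe libraries of 3 groups, whose separation carries the first of them.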

How the data were processed

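Total RNA libraries were made with the CORALL RNA-seq V2 kit. The authors deposited raw read counts for each gene symbol, in whole numbers without normalization. The submitters' processing notes name bcl2fastq 2.20.0.422, fastp, STAR, Salmon and GRCm39. Their roles, the use of strand and any removal of duplicates are not given in the sources used here. Of the 40213 symbols, 15482 had no count in any library. Gene positions of that build were not used here, and promoters are from RefSeq on GRCm38.p6, matched by symbol.

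The analysis used edgeR 4.0.16 together with statmod 1.5.0 and limma 3.58.1 in R 4.3.3. The filterByExpr function, given the 3 groups, kept 14413 genes, which were scaled with TMM factors of 0.957 to 1.026 and fitted on all 9 libraries with the robust quasi-likelihood model. The group and the replicate number were terms, the latter because the study names a paired test, which left 4 residual degrees of freedom. Adjusted p-values are Benjamini-Hochberg over the genes tested, two-sided, with a threshold of 0.05, and come from this fit unless another is named. Log2 CPM used a prior count of 2. Intervals of fold changes are at 95% and used the total degrees of freedom of each gene (median 7.25).

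Alternatives were DESeq2 1.42.0, no replicate block, other scaling (RLE, upper-quartile or library totals only), other filters (none, or a minimum of 10 counts per library), fits on just the 6 libraries of a comparison, and omission of each library or of 2 together. On simulated counts for 14413 genes, the test called 20, 22 and 28% of genes changed 2-fold and 86, 86 and 94% of genes changed 4-fold (Ad-Hif1a and Ad-Hif2a against Ad-C, and Ad-Hif2a against Ad-Hif1a). The 10 genes and all lists were chosen with earlier results of these data known. Besides the 10 genes and those of the vectors, the text names up to 4 genes per pathway list with the lowest adjusted p and the 5 most like the mean profile, and the genes of the canonical kinase complex.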

Additional observations from a re-analysis of the deposited data

How the results depend on the processing

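Of the 180 alternative values of the 10 genes in each comparison, 154 kept their direction and side of the threshold with Ad-Hif1a against Ad-C (9 came to pass and 17 no longer passed), 154 with Ad-Hif2a against Ad-C (12 and 14) and 180 between the vectors, and no called value reversed. Without the replicate block, 2379 genes changed with Ad-Hif1a (1624 with it), 3452 with Ad-Hif2a (2247) and 2 between the vectors (0), and 4, 5 and 0 of the 10 genes rose. Tnfaip3 then passed with Ad-Hif2a (1.21, adjusted p = 0.0189). Same-numbered libraries did not deviate together. None of 9 same-numbered pairs (0) had a correlation of deviations over 0.1 (-0.575 to 0.098), and 2 of 9 libraries correlated best with their own number. The libraries that stood apart, Ad-Hif1a replicate 1 and Ad-Hif2a replicate 3, carry different numbers (r = 0.61). These correlations thus cannot show whether same-numbered libraries shared a culture. DESeq2 called 2470, 3526 and 19 genes in the 3 comparisons, and 4, 5 and 0 of the 10. The 6 libraries compared alone gave 4706 genes with Ad-Hif1a and 7 of the 10, and 3 of the 10 with Ad-Hif2a. With no filter, 2 genes differed between the vectors. With each library left out in turn, genes changed numbered 441 to 5330, 688 to 3309 and 0 to 12, and 1 to 7, 1 to 8 and 0 of the 10 rose. The highest values were all without Ad-Hif2a replicate 3 and the lowest without Ad-C replicate 1 (441, 688). With Ad-Hif1a, 1 of the 10 also remained past the threshold without Ad-C replicate 2 or 3 or Ad-Hif1a replicate 1 or 2. With Ad-Hif2a, 1 rose without Ad-C replicate 3, and 2 rose without Ad-C replicate 2, Ad-Hif1a replicate 2 or Ad-Hif2a replicate 2. With Ad-Hif1a replicate 1 and also Ad-Hif2a replicate 3 left out, 4022, 4173 and 11 genes changed and 7, 8 and 0 of the 10 rose. Leaving a library out also leaves fewer degrees of freedom, and further causes were not tested. In simulated counts of genes drawn from all those tested, changes of 2-fold were mostly not detected. That share is not specific to the 10 genes, of which Nfkb2 and Relb passed with Ad-Hif1a at log2 fold changes of 0.63 and 0.89. A gene that did not pass is not shown to be unchanged, and its 95% interval gives the range that remains.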
